A study of Mus musculus with 4 samples.

Results

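Oxidative phosphorylation is carried out by 5 large complexes of the inner mitochondrial membrane, and most of their subunits are encoded by genes in the nucleus. The genes described here are those nuclear subunit genes, chosen by symbol alone: symbols starting with Nduf and a letter a, b, c, s or v, then a digit (complex I), Sdha to Sdhd (complex II), Uqcr symbols and Cyc1 (complex III), Cox4 to Cox8 symbols (complex IV), Atp5 symbols (complex V) and Cycs, the electron carrier cytochrome c. Pseudogene and assembly factor symbols were left out. The rule found 88 of the 25124 genes listed, with 37 in complex I, 4 in complex II, 9 in complex III, 19 in complex IV, 17 in complex V, Cycs, and Ndufa4l2, a paralog of Ndufa4 that was counted in no complex. Ndufa4 itself was counted in complex IV, where its product is found, in spite of its name.

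RNA was sequenced from airway epithelial cells sorted by flow cytometry from lungs of wild-type C57BL/6 mice. All mice of both groups had been sensitised with house dust mite (HDM) allergen, used in mice to cause allergic airway inflammation. Of the 4 samples, 2 came from mice given a compound that blocks SCD1 (stearoyl-CoA desaturase 1, which puts the first double bond into saturated fatty acids), and 2 from mice given DMSO, the vehicle. Unsensitised mice were not analysed here, so the comparison is of inhibitor with vehicle within sensitised mice. No source used here names the compound, its dose or the animals behind each sample. Nothing says that the samples were separate animals, so the p values measure only the spread between these libraries, which may be technical.

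In oxidative phosphorylation, complex I takes electrons from NADH and complex II from succinate, complex III passes them to cytochrome c, and complex IV hands them to oxygen. The protons that complexes I, III and IV move across the membrane flow back through complex V, the ATP synthase, and drive the making of ATP. In the airway, ciliated cells need ATP for ciliary beating, and fatty acids, whose desaturation SCD1 catalyses, are among the fuels that feed electrons into the chain.

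The nuclear subunit genes are known for sharing a few regulators, among them nuclear respiratory factor NRF1, the ETS factor GABPA (NRF2), YY1 and the oestrogen-related receptor ERR-alpha. Their core letters were therefore searched on both strands in RefSeq promoters (GRCm38.p6), each holding 250 bases before and 50 after the first listed start of a gene. Promoters were in the table for 68 of the 88 genes, 65 of them tested for expression. The NRF1 core GCATGCG was found in 11 of those 65 promoters (16.9%), against 6.33% of the promoters of 10898 tested genes and 3.64% of all 27025 promoters. For the ETS core CCGGAAG the figures were 16 of 65 (24.6%), against 17.4% and 9.12%. The YY1 core ATGGCGG was in 9 (13.8%), against 7.90% and 4.19%, and the ERR-alpha core AAGGTCA was in 8 (12.3%), against 3.31% and 4.66%. A palindromic NRF1 core counts as a match on each strand at overlapping positions, and matches of different cores overlapped in none of the 68 promoters. A match is a run of letters, not a shown binding site.

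Of these promoters 4 are printed: Cycs and Cox6a1 each hold the full palindromic NRF1 core, Atp5b is the most highly expressed subunit gene, and Atp5md had the largest positive difference. Each runs 5′ to 3′ on the strand of its gene, from 250 bases before to 30 after the start, with the motif letters in capitals (NRF1 in Cycs, NRF1 and then ETS in Cox6a1, YY1 in Atp5b and ETS in Atp5md, the last 3 of these on the strand opposite to the letters given).

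Cycs promoter (chr6:50566540-50566819, minus strand): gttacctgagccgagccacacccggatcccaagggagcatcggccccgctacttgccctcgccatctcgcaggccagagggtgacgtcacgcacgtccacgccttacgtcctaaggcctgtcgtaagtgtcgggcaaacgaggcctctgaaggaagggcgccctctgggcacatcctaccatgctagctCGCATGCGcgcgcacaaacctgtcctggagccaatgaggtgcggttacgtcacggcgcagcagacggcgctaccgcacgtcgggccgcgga

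Cox6a1 promoter (chr5:115348929-115349208, minus strand): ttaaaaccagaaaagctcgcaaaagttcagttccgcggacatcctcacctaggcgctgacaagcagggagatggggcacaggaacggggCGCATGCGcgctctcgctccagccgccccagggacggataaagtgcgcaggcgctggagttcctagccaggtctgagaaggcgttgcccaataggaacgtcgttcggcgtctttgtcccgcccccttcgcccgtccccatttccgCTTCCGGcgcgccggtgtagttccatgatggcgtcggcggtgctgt

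Atp5b promoter (chr10:128083057-128083336, plus strand): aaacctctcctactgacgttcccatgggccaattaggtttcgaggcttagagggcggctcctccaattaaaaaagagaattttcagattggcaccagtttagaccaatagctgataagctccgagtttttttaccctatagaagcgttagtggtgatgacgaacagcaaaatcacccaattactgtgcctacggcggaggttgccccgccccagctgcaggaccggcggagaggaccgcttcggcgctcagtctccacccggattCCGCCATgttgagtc

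Atp5md promoter (chr19:47090618-47090897, minus strand): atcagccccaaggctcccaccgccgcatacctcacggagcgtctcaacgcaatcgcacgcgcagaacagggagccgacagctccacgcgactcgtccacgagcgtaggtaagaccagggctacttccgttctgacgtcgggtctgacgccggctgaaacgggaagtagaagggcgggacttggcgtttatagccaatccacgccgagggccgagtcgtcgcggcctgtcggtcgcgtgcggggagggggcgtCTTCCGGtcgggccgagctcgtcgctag

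The 4 libraries held 24591122 to 27013663 reads assigned to genes, and values are normalised reads, that is, reads divided by 1 size factor per library. The cells carried epithelial markers, with all 7 of 7 tested and summed levels of 118820 and 123059 in the DMSO libraries and 113917 and 120736 in the inhibitor libraries. Markers of other cell types differed between libraries. The 7 endothelial markers, all tested, summed to 4273 in DMSO replicate 1 and 12654 in DMSO replicate 2, against 4536 and 6254 in the inhibitor libraries, and the 10 macrophage markers (8 tested) summed to 949 and 3416 against 4174 and 2134. The 9 leukocyte markers (4 tested, 2 lower and 2 higher) summed to 118 and 347 against 320 and 208. Of these, Ptprc stood at 48.7 and 181 against 241 and 69.2, and Nkg7, S100a8 and S100a9 at 0 in every library. Within the epithelium, the goblet cell list was lower with the inhibitor in 10 of 10 tested markers (summed levels 106748 and 81126 against 19189 and 37216, 7 markers past the threshold). Club cell markers were lower in 9 of 9 tested (774326 and 688312 against 708254 and 480340) and alveolar type 2 markers in 9 of 10 (383876 and 437207 against 301107 and 250730), 4 past the threshold in each. Alveolar type 1 markers were lower in 5 of 7 tested (30112 and 31084 against 27882 and 27159), 1 past the threshold. Over all tested genes, 0.427% passed as lower and 1.36% as higher. Ciliated cell markers were higher in 9 of 13 tested, 1 past the threshold (Ccdc39, log2 fold change 1.42, adjusted p = 0.0014, limma), and summed to 563718 and 567277 against 568517 and 586650. Basal cell markers were lower in 6 of 6 tested (5474 and 3954 against 973 and 3133) and fibroblast markers higher in 6 of 6 (914 and 2433 against 2776 and 2849), with 0 past the threshold in either list and 4 and 3 at an unadjusted p under 0.05. In bulk RNA, fewer cells of a type and less RNA per cell cannot be told apart, and the part of these shifts in any value given here was not tested.

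None of the subunit genes differed past the threshold between inhibitor and DMSO. Of the 88 genes, 80 reached the testing floor (a mean of 25.8 normalised reads, which is 1 CPM), and 0 of these 80 had an adjusted p under 0.05 in limma's moderated linear model, with the Benjamini-Hochberg adjustment over all 13810 genes tested. Over all tested genes 1.79% passed, 1.36% higher and 0.427% lower with the inhibitor. At an unadjusted p under 0.05 there were 6 of the 80 (7.5%), 5 lower and 1 higher, against 14.1% of all tested genes, 5.92% lower and 8.16% higher. Inhibitor libraries lay below both DMSO libraries for 21 genes (26.2%, against 22.2% of all tested genes) and above both for 5 (6.25%, against 22.7%), and the groups overlapped for the other 54.

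The estimates lay close to 0 in most cases. The median log2 fold change (inhibitor over DMSO, on the scale log2(value + 25.8)) was -0.08 over the 80 genes, against 0.01 over all tested genes, and 48 of the 80 (60.0%) were negative, against 49.3%. Single genes ranged from -1.0 (Cox6a2) to 0.58 (Atp5md). The 95% interval of the fold change lay within 2-fold in either direction for 71 of the 80 genes and within 1.5-fold for 34, so for those 71 genes a change of over 2-fold fell outside the interval. All fold changes below are on this scale, with standard errors from the same model.

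**Figure D1:**
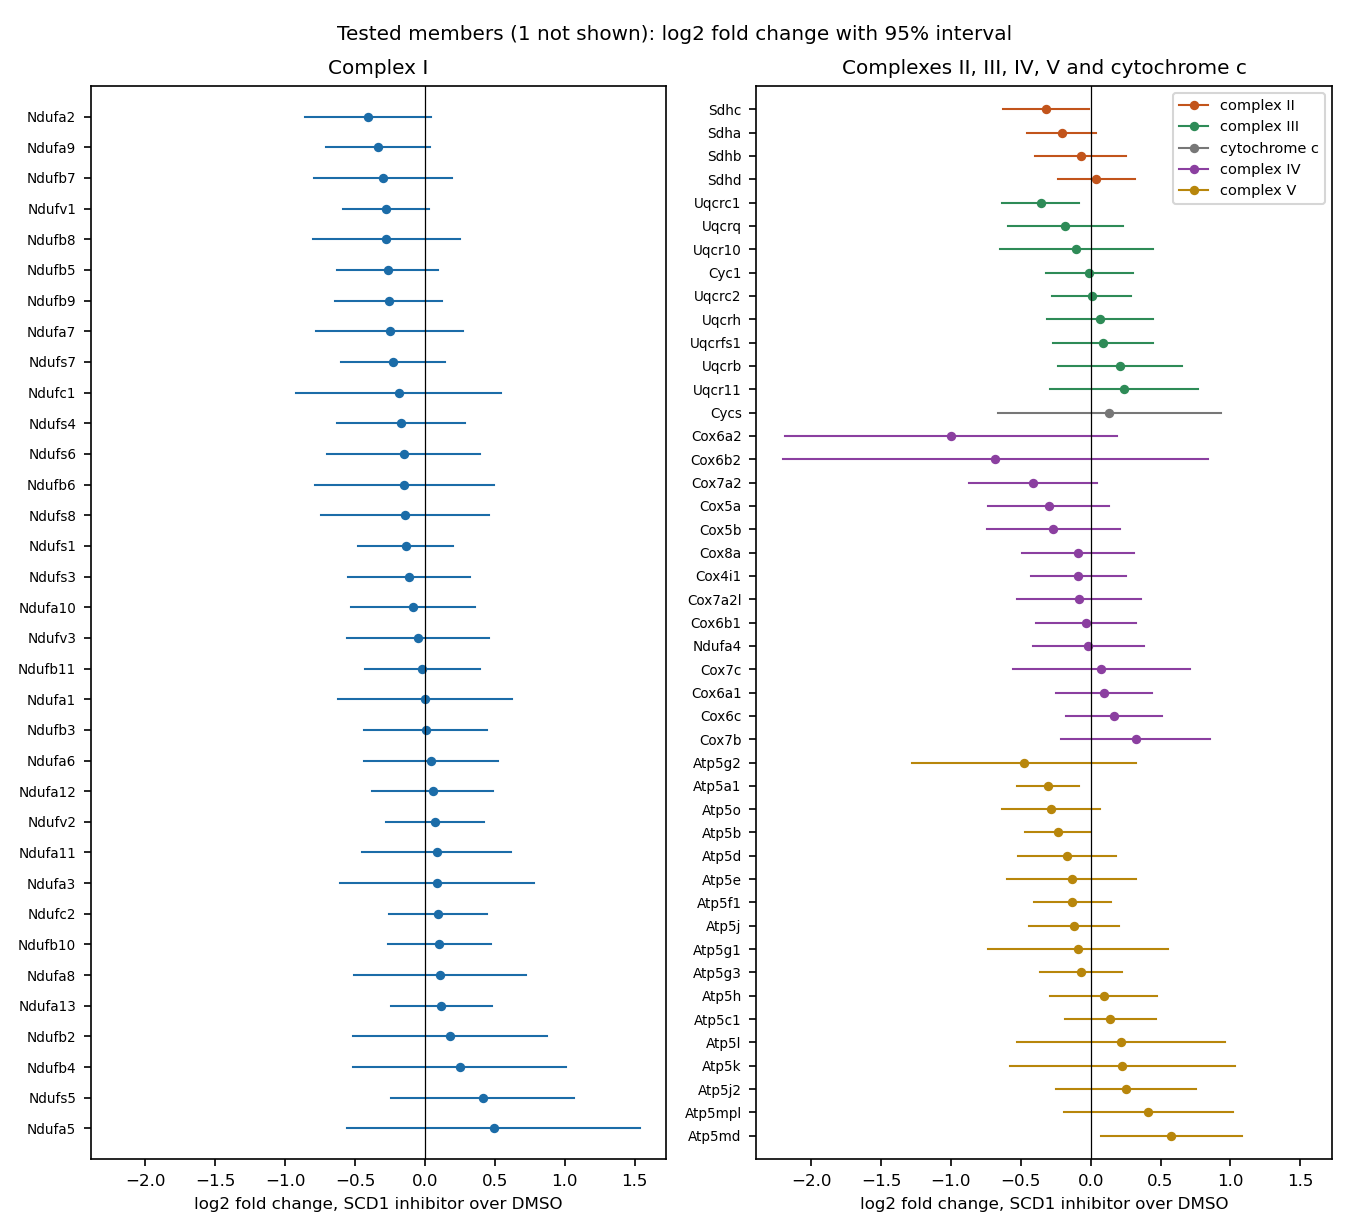
Log2 fold change, SCD1 inhibitor over DMSO, of the tested subunit genes (1 of the 80 is not shown), with 95% intervals from limma over 4 libraries; the vertical line marks 0 and colours mark the complex. Most intervals cross 0, the exceptions shown being Sdhc, Uqcrc1, Atp5a1 and Atp5b below it and Atp5md above it.

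The 2 DMSO libraries differed from each other by more, in the median, than the groups did. DMSO replicate 2 exceeded DMSO replicate 1 in 69 of the 80 genes, against 48.4% of all tested genes, with a median log2 difference of 0.26. Short genes in general shared this order. It held for 69.9% of all tested genes with transcripts under 600 nt and 68.3% of those of 600 to 1000 nt. For the subunit genes of these lengths the shares were 90.5% and 96.4%. The inhibitor libraries differed by a median of 0.01, with replicate 2 higher in 44 of 80. In summed levels the 88 genes took 0.540% and 0.638% of normalised reads in the DMSO libraries and 0.536% in each of the inhibitor libraries. In this sum the inhibitor pair sat at the level of DMSO replicate 1. Without Atp5a1 and Atp5b the shares were 0.384% and 0.463% with DMSO and 0.401% and 0.394% with the inhibitor. Both inhibitor libraries then lay above DMSO replicate 1. DMSO replicate 2 was also the library with the highest endothelial marker sum (12654). The gap between the DMSO libraries was widest in complex IV, where replicate 2 was higher in all 14 tested genes (median 0.45), and was absent in complex II, where it was higher in 1 of 4 (median -0.05).

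**Figure D2:**
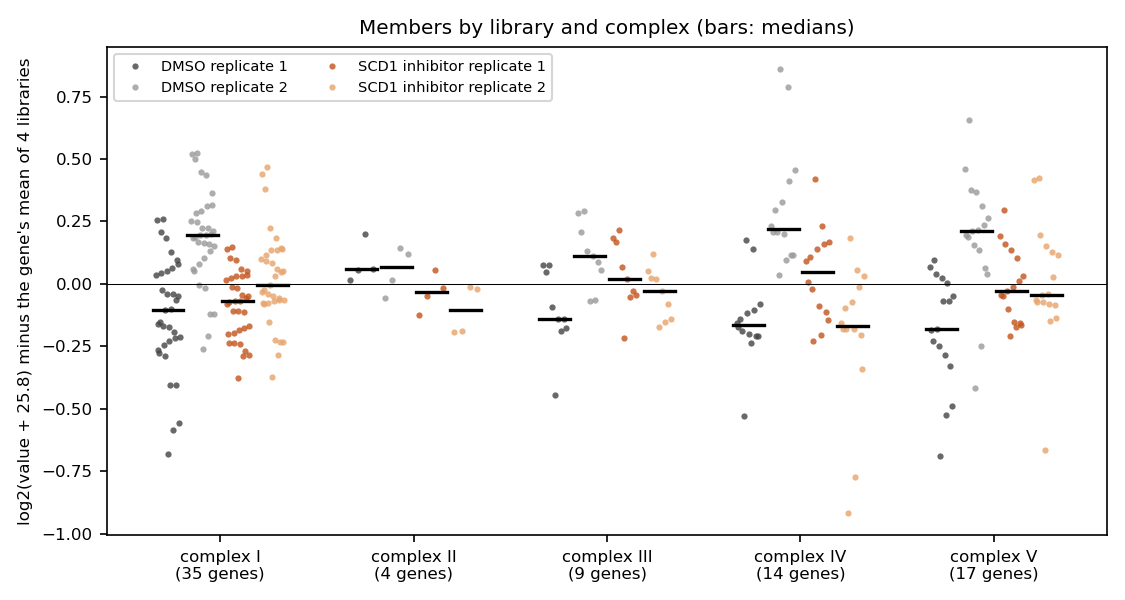
Each tested subunit gene in each library, as log2(value + 25.8) minus the mean of that gene over the 4 libraries, by complex; points are genes and black bars are medians. DMSO replicate 2 has the highest bar in each complex, while DMSO replicate 1 has the lowest in complexes I, III and V.

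Leaving out 1 DMSO library turned the sign of the overall median. Without DMSO replicate 1 the median was -0.23, with 65 of 80 genes negative and 2 past the threshold (Cox5a, -0.61, adjusted p = 0.0492, and Uqcrc1, -0.46, adjusted p = 0.0438, both limma). Without DMSO replicate 2 it was 0.10, with 29 of 80 negative and 0 past the threshold. Complexes I, III, IV and V changed sign with these choices, from -0.25, -0.08, -0.29 and -0.25 without DMSO replicate 1 to 0.11, 0.14, 0.12 and 0.16 without DMSO replicate 2. Complex II alone of the 5 stayed negative with any 1 library left out, from -0.17 to -0.10. In each of these fits the lone sample of a group was assumed to vary like the other group.

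**Figure D3:**
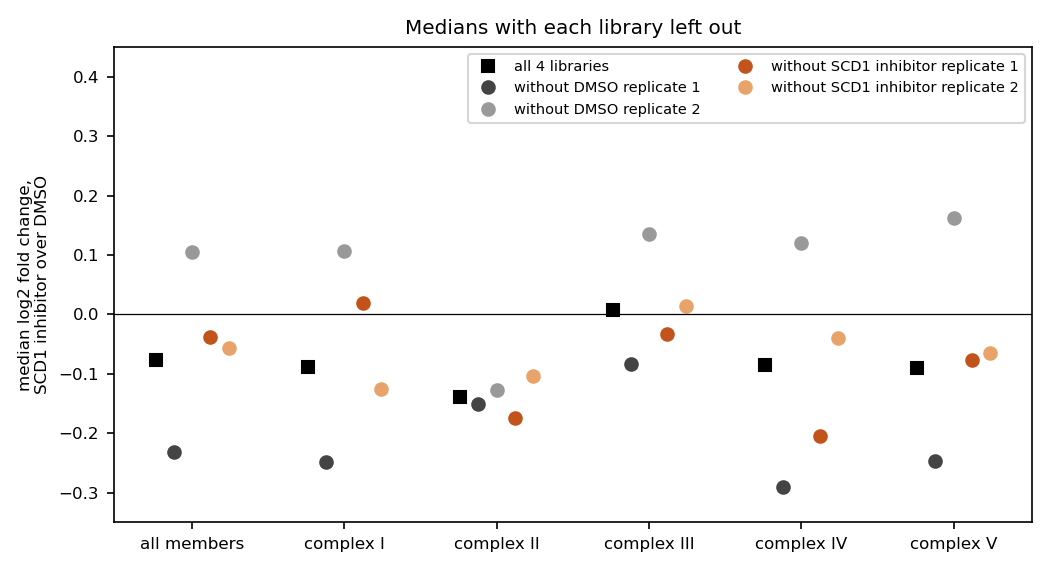
Median log2 fold change, SCD1 inhibitor over DMSO, over all tested subunit genes and within each complex, from all 4 libraries (squares) and with each library left out in turn (circles). The medians without DMSO replicate 2 lie above 0 except in complex II, where the 5 values run from -0.17 to -0.10.

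Of the 37 complex I genes, 35 were tested, and 21 were negative, with a median of -0.09. The other 2, Ndufa11b and Ndufb4c, had 0 reads in every library, which allows up to 0.111 to 0.122 CPM (3 reads in a library, counting error only). Of the core subunits of the complex, 7 are nuclear, among them those that carry the flavin and the iron-sulphur clusters. These 7 genes had a median of -0.15, with 6 negative, while the 28 tested accessory genes had a median of -0.01, with 15 negative.

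Ndufv1, the subunit that binds NADH and flavin, stood at 2322 and 2519 with DMSO and 1908 and 2072 with the inhibitor (log2 fold change -0.28 ± 0.14, SE, adjusted p = 0.412, limma), without overlap. Its partner Ndufv2 had the opposite sign and overlapping groups, with 1479 and 1543 against 1476 and 1711 (0.07).

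Ndufs1, the largest core subunit, which carries several iron-sulphur clusters, measured 2691 and 2058 with DMSO and 2128 and 2141 with the inhibitor (-0.14), and the inhibitor values lay between the DMSO values. Ndufs7, which holds the last iron-sulphur cluster before quinone, measured 1294 and 1388 against 1096 and 1186 (-0.23), with no overlap. Further core genes, Ndufs3 with 879 and 1098 against 899 and 913 and Ndufs8 with 532 and 895 against 534 and 724, overlapped between groups, since DMSO replicate 1 was their lowest library.

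Among accessory genes, Ndufa2, in the arm that oxidises NADH, gave 873 and 1021 with DMSO and 715 and 694 with the inhibitor (-0.41 ± 0.21, adjusted p = 0.411, limma). Ndufa9, a subunit near the quinone site, gave 2142 and 1892 with DMSO and 1834 and 1377 with the inhibitor (-0.34 ± 0.17, adjusted p = 0.411). In both, the 2 inhibitor libraries were the lowest of the 4. Ndufb5, Ndufb7, Ndufb9 and Ndufs4 had the same order of groups, with log2 fold changes of -0.27, -0.30, -0.26 and -0.17. Ndufs5 was the one complex I gene with both inhibitor libraries above both DMSO libraries, at 371 and 479 against 324 and 298 (0.41 ± 0.30, adjusted p = 0.598). The largest positive estimate, 0.49 for Ndufa5, came from 60.4 and 132 reads with DMSO and 118 and 162 with the inhibitor, groups that overlapped.

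Complex II is succinate dehydrogenase, which belongs both to the chain and to the tricarboxylic acid (TCA) cycle, and all 4 of its subunits are nuclear. The median was -0.14, with 3 of 4 genes negative, against 49.3% of all tested genes. The same 3 lay below without overlap, against 22.2% of all tested genes. They are among the genes where the DMSO libraries were close to each other. Sdhc (chr1:171127165-171150603, minus strand, GRCm38), a membrane anchor, measured 2377 and 2245 with DMSO and 1892 and 1805 with the inhibitor. The DMSO libraries were the higher 2 (-0.32 ± 0.14, unadjusted p = 0.0447, adjusted p = 0.339, limma). Sdha, the flavoprotein that oxidises succinate, measured 7322 and 7769.7 against 6935 and 6159.9 (-0.21 ± 0.11, adjusted p = 0.461). Sdhb, the iron-sulphur subunit, came to 1784 and 1733 against 1655 and 1689 (-0.07), a small gap without overlap. Sdhd, the other membrane anchor, overlapped, with 3234 and 3083 against 3329 and 3172 (0.04).

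All 9 complex III genes were tested, with a median of 0.01 and 4 negative. Uqcrc1 (chr9:108936633-108949623, plus strand), a core protein on the matrix side, measured 3938 and 4551 with DMSO and 3213 and 3386 with the inhibitor. Both inhibitor libraries were below both DMSO libraries (-0.36 ± 0.13, adjusted p = 0.219, limma). Uqcrc2, the core protein that pairs with it, differed little, with 3006 and 3409 against 3114 and 3324 (0.01).

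The subunits of complex III that carry electrons gave small differences. Cyc1, cytochrome c1, stood at 2176 and 1975 with DMSO and 2094 and 2025 with the inhibitor (-0.01), and Uqcrfs1, the Rieske iron-sulphur protein, at 1437 and 1650.1 against 1786 and 1502 (0.09). Among the small subunits, Uqcrb had both inhibitor libraries above both DMSO libraries, 953 and 849.7 against 755 and 795 (0.21), and Uqcr11 had 575 and 919 with DMSO and 925 and 804 with the inhibitor (0.24), which overlapped. Uqcrq had the opposite order to Uqcrb, with 1026 and 1090.1 against 971 and 891 (-0.18). The ranges of the other small subunits, Uqcr10 and Uqcrh, overlapped between the groups.

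Cycs, whose promoter with its NRF1 palindrome is printed above, measured 182 and 267 normalised reads with DMSO and 215 and 278 with the inhibitor. The groups overlapped, and replicate 2 was the higher library in both (0.13 ± 0.37, adjusted p = 0.911, limma). Per kilobase of its 3123 nt transcript model this is 75.4 normalised reads.

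Complex IV has tissue forms of several subunits beside the form found in most tissues. All 12 genes of the second kind were tested, with 8 negative, and only 2 of the 7 genes of tissue forms were. Cox7b2, Cox8b and Cox8c had 0 reads in every library, with the same limits as above. Cox4i2, the lung and hypoxia form of subunit 4, had 19.5 and 21.8 reads with DMSO and 43.0 and 8.39 with the inhibitor, below the floor, while Cox4i1, the widespread form, had 5112 and 7261 with DMSO and 6298 and 5218 with the inhibitor. Cox7a1, the heart and muscle form, had 18.5 and 10.9 against 19.1 and 17.8, also below the floor. Cox6b2, a testis form, lay just above the floor with 19.5 and 58.5 against 31.5 and 0, a mean of 27.4 against 23.2 for Cox4i2, the nearest gene left out. The widespread Cox6b1 had 1337 and 1537 against 1395 and 1407 (-0.03). Per kilobase of transcript the ratio between forms is large, with 7807 for Cox4i1 and 31.6 for Cox4i2.

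Cox6a2, the heart and muscle form of subunit 6a, had the most negative estimate of all 80 genes. It measured 74.1 and 139 with DMSO and 51.6 and 27.3 with the inhibitor, with the inhibitor libraries lowest (-1.0 ± 0.55, adjusted p = 0.457, limma). Its widespread counterpart Cox6a1, whose promoter is printed above, had 1932 and 2422 against 2513 and 2124 (0.09). Annotated exons of Cox6a2 overlap those of Itgad on the other strand.

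Cox7a2, the widespread form of subunit 7a, had the smallest p of the complex, with 854 and 888 in the DMSO libraries and 649.8 and 648 in the inhibitor libraries. The pairs were tight and did not overlap (-0.41 ± 0.21, adjusted p = 0.419, limma). Cox7a2l, which encodes a related protein, overlapped, with 853 and 1067 against 854 and 947 (-0.08). Cox5a, a subunit on the matrix side, measured 1282 and 1971 in the DMSO libraries and 1290.0 and 1282 in the inhibitor libraries. Here 3 libraries were alike and DMSO replicate 2 was apart (-0.30 ± 0.20, adjusted p = 0.552). Cox8a had 1485 and 2213 against 1764 and 1639.6 (-0.09). Cox6c was the gene of this complex with both inhibitor libraries above both DMSO libraries, 1792 and 1727 against 1439 and 1702 (0.17).

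All 17 complex V genes were tested, with a median of -0.09 and 10 negative. By part, the 5 genes of the soluble F1 head had a median of -0.17, with 4 negative, and the 3 c-ring genes -0.09, with 3 negative. The 9 other genes of the stalks and membrane part had a median of 0.22, with 3 negative. Of these 9, 2 lay above without overlap (22.2%, against 22.7% of all tested genes) and 2 below (22.2%, against 22.2% of all tested genes). Of the 5 F1 genes, 3 lay below without overlap (60%, against the same 22.2%) and 0 above. All 3 c-ring genes overlapped. The differences between these groups were not tested.

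Atp5a1 and Atp5b encode the alpha and beta subunits that form the catalytic hexamer. Atp5a1 measured 18112 and 19655 with DMSO and 15230.2 and 15297 with the inhibitor. The inhibitor pair was nearly equal and below both DMSO libraries (-0.31 ± 0.10, unadjusted p = 0.0112, adjusted p = 0.189, limma), and DESeq2 gave Atp5a1 an adjusted p of 0.0155. Atp5b (chr10:128083273-128090391, plus strand) measured 22700.4 and 25328 against 19612 and 21130.5. It had the same order of groups, with a smaller difference (-0.24 ± 0.11, adjusted p = 0.344). Exons of Atp5a1 overlap those of Haus1 on the other strand, and no source used here says whether counting used strand. In all, 24 of the 88 genes have exons overlapping another annotated gene.

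The other F1 genes were Atp5d, the delta subunit of the central stalk, with 1575 and 1897 against 1518 and 1548 (-0.17, no overlap), Atp5c1, the gamma subunit that rotates, with 1752 and 2045 against 2009 and 2176 (0.14), and Atp5e, the epsilon subunit, with 992 and 1514 against 1039.6 and 1192 (-0.14). Atp5c1 was the F1 gene with a positive estimate, and its groups overlapped.

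The c-ring, the rotor in the membrane, is made from 3 genes that encode the same mature protein. Atp5g3 was the most abundant, with 2723 and 3139.6 with DMSO and 2795 and 2773 with the inhibitor (-0.07). Atp5g1 had 361 and 585 against 441 and 419.6 (-0.09), and Atp5g2 had 331 and 614 against 438 and 229.7 (-0.47 ± 0.37, adjusted p = 0.624, limma). Groups overlapped for Atp5g1, Atp5g2 and Atp5g3, and DMSO replicate 2 was the highest library in each.

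Atp5md (chr19:47083464-47090647, minus strand), which encodes a small membrane subunit of the synthase (DAPIT) linked to its dimers, had the largest positive difference of the 80 genes. It measured 511 and 540.1 with DMSO and 726 and 873 with the inhibitor. Both inhibitor libraries lay above both DMSO libraries (0.58 ± 0.23, unadjusted p = 0.0275, adjusted p = 0.287, limma), and the ETS core in its printed promoter lies just after the start. Exons of Atp5md overlap those of Taf5 on the other strand. Atp5mpl, another small membrane subunit, followed the same order, 569 and 500.4 against 461 and 338 (0.41 ± 0.28, adjusted p = 0.563). Atp5o, the subunit that ties the head to the outer stalk, had the opposite order, 1609 and 1909.7 with DMSO and 1425 and 1440.3 with the inhibitor (-0.29 ± 0.16, adjusted p = 0.467). So did Atp5f1, the b subunit of that stalk, with 3164 and 3152 against 2918 and 2844 (-0.13).

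Levels between genes were compared per kilobase of 1 transcript model a gene. Atp5b was highest, with 11583 normalised reads per kilobase over the 4 libraries, followed by Cox4i1 with 7807, Atp5a1 with 6909.5, Atp5g3 with 4002, Cox6a1 with 3937 and, in complex I, Ndufc2 with 3648. Within complex II the per-kilobase levels ran from 656 (Sdhc) to 2603 (Sdhd). The low values of Atp5g1 (95.8) and Ndufb2 (114) rest on long models of 4715 and 4371 nt, and would be higher with a shorter one.

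**Figure D4:**
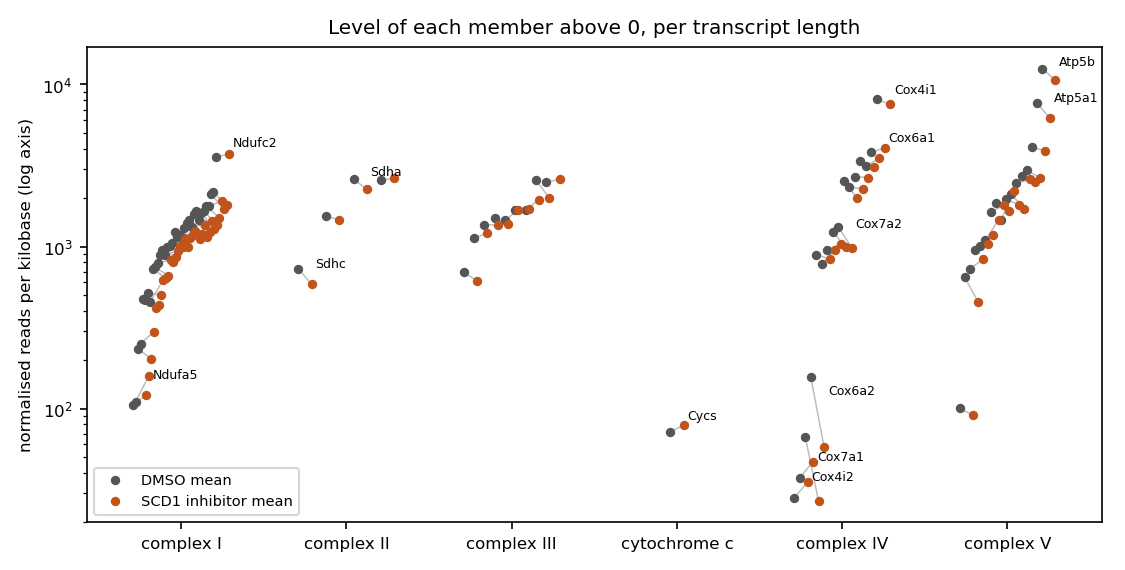
Mean normalised reads per kilobase of transcript model (log axis) in DMSO (grey) and SCD1 inhibitor (orange) libraries for each subunit gene above 0 in both groups, ordered by level within a complex; a grey line joins the 2 means of a gene, n = 2 libraries each. Atp5b is at the top, with 11583 over the 4 libraries, and the tissue forms Cox4i2, Cox6a2, Cox6b2 and Cox7a1 are at the bottom of complex IV.

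The subunit genes have short transcripts, with a median model of 824 nt against 2941 nt for all tested genes, and the differences between libraries moved with length. The 19 genes of 1500 nt or more had a median log2 fold change of -0.14, with 15 negative (78.9%) and 10 with both inhibitor libraries below both DMSO libraries (52.6%). All 11484 tested genes of that length had a median of 0.01, with 49.2% negative and 23.2% below without overlap. The 2 sets are not alike in length, with medians of 1896 nt for the 19 and 3341 nt for the 11484. Atp5g1 and Ndufb2 count among the 19 only by the long models named above. By contrast, the 21 genes under 600 nt had a median of 0.08, with 8 negative. Over all tested genes the medians were 0.08 for the 219 genes under 600 nt, -0.03 from 1500 to 2500 nt, -0.02 from 2500 to 4000 nt and 0.14 for the 1020 of 7000 nt or more. Between the DMSO libraries (replicate 2 minus replicate 1) the medians over all tested genes went from 0.29 under 600 nt to -0.18 at 7000 nt or more, and those of the subunit genes were 0.38 under 600 nt and 0.10 at 1500 nt or more. Between the inhibitor libraries the medians of all tested genes lay from -0.07 to 0.02 over the 7 length classes. With the trend over length removed in every library, the median of the 80 genes was -0.06, with 0 past the threshold. Of the 5 genes at an unadjusted p under 0.05 in the lower direction, all 5 have models of 1500 nt or more, as do 727 of the 817 such genes among all tested, while Atp5md has one of 362 nt. The part of length in single results was not tested.

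**Figure D5:**
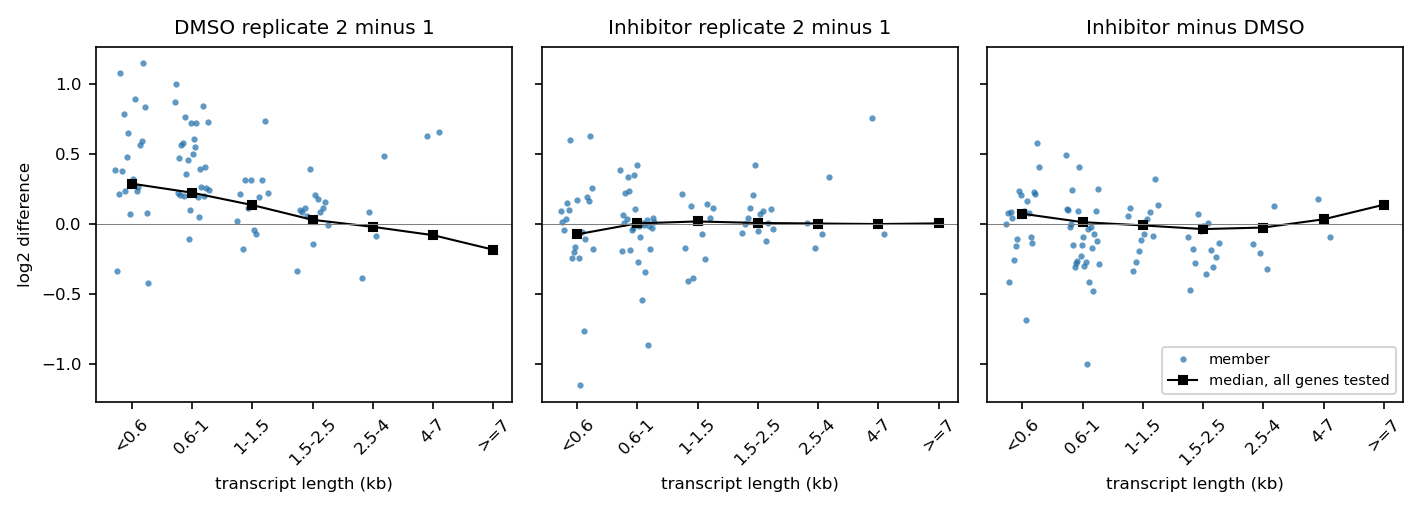
Log2 differences of the 80 tested subunit genes (blue points) and medians of all tested genes (black squares) by transcript length, for DMSO replicate 2 minus 1, inhibitor replicate 2 minus 1, and inhibitor minus DMSO. The black line descends from 0.29 to -0.18 between the DMSO libraries and stays from -0.07 to 0.02 between the inhibitor libraries.

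The regulators of the subunit genes were followed as a list of 17 known factors, of which 16 were tested. Of the 16, 13 were negative (81.25%, against 49.3% of all tested genes), with a median of -0.21 and 0 past the threshold. At an unadjusted p under 0.05 there were 2 (12.5%, against 14.1% of all tested genes). Both were higher, against 8.16% of all tested genes. Ppargc1a, the coactivator PGC-1alpha, which is known to drive mitochondrial gene expression, measured 1027 and 1146 with DMSO and 1713 and 1601 with the inhibitor. Both inhibitor libraries were above both DMSO libraries (0.60 ± 0.17, adjusted p = 0.108, limma). Gabpa, the ETS factor that reads the CCGGAAG core, had 986 and 633 against 1363 and 1276 (0.72 ± 0.22, adjusted p = 0.145), also without overlap. The Gabpa value was 1.03 (adjusted p = 0.00499) without DMSO replicate 1 and 0.41 (adjusted p = 0.298) without DMSO replicate 2. Its exons overlap those of the subunit gene Atp5j on the other strand. Nrf1 had 832 and 1208 against 790.2 and 775 (-0.35), Esrra, which encodes ERR-alpha, 896 and 912 against 791 and 749 (-0.22), and Tfam, which binds and packs mitochondrial DNA, 655 and 712 against 555 and 470.0 (-0.40). In Nrf1, Esrra and Tfam both inhibitor libraries were lower than both DMSO libraries, with adjusted p values of 0.530, 0.680 and 0.499. The Nrf1 value was -0.61 without DMSO replicate 1 and -0.086 without DMSO replicate 2.

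Subunit genes with a motif in the promoter window did not all lie on one side. The 35 tested genes with any of the 4 cores had a median log2 fold change of -0.03 (19 negative), and the 30 without one had -0.07 (18 negative). By motif, 3 of 11 genes with the NRF1 core, 8 of 16 with the ETS core, 8 of 9 with the YY1 core and 2 of 8 with the ERR-alpha core were negative, with medians of 0.09, 0.00, -0.23 and 0.20. These are counts of the same 4 libraries, given with no test.

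Of 50 tested assembly factors, 1 passed the threshold, against 1.79% of all tested genes. In the list 25 were negative and 25 positive (median -0.01). The gene past the threshold was Sco2, a copper chaperone needed to build complex IV. Sco2 was higher with the inhibitor, 5163 and 4853 with DMSO against 6912 and 7141 (0.49 ± 0.11, adjusted p = 0.0473, limma). Its adjusted p was 0.481 without inhibitor replicate 1, 0.675 without inhibitor replicate 2 and 0.0519 without DMSO replicate 2, and 0.137 in edgeR's quasi-likelihood test. The log2 fold change of Sco2 ran from 0.44 to 0.53 with 1 library left out. Exons of Sco2 overlap those of Tymp on the same strand and Ncaph2 on the other. Ttc19, which takes part in complex III maturation, had 511 and 397 with DMSO and 795 and 750.1 with the inhibitor (0.74 ± 0.25, adjusted p = 0.175).

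The TCA cycle genes, which supply NADH and succinate to the chain, were 8 negative and 8 positive of 16, with a median of 0.03 and 0 past the threshold. At an unadjusted p under 0.05 there were 4 lower (25%, against 5.92% of all tested genes) and 1 higher. Cs, citrate synthase, measured 4797 and 4862 with DMSO and 3806 and 3888 with the inhibitor (-0.33 ± 0.12, adjusted p = 0.220, limma), Ogdh, of the 2-oxoglutarate dehydrogenase complex, 16663 and 17707 against 14178 and 13864 (-0.29 ± 0.10, adjusted p = 0.208), and Dld, the E3 subunit shared by such complexes, 1560.5 and 1556 against 2066 and 2028 (0.39 ± 0.15, adjusted p = 0.258). The groups did not overlap in Cs, Ogdh or Dld.

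Other mitochondrial genes gave no calls. Among 18 genes of outer membrane channels, import, carriers and chaperones, 10 were negative (median -0.04), and among 78 genes of the mitochondrial ribosome, 43 (median -0.10). In either list 0 passed the threshold. At an unadjusted p under 0.05 there were 0 and 4, against 14.1% of all tested genes. Ndufab1 and Atpif1, a complex I subunit and an ATP synthase inhibitor whose symbols fall outside the rule, had log2 fold changes of 0.19 and 0.09 (adjusted p = 0.767 and 0.861, limma). The subunits encoded by mitochondrial DNA were not analysed here.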

How the data were processed

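RNA sequencing of 4 libraries, 2 per group, was used as 1 table of 25124 gene symbols. In the deposited signal values, each library's gene counts had been divided by its own size factor; HOMER, DESeq2 and the build mm10 are named in the submitters' processing notes, without their roles, and the aligner is not stated there. Every value was a whole multiple of 1 step per library (100% within 0.01), which gave 24591122 to 27013663 reads, though for DMSO replicate 2 the step (0.991) is too near 1 to tell from rounding by size alone. At the floor the counting error of a library is 19.7%, counting error only.

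Values were tested as log2(value + 25.8) for the 13810 genes with a mean of at least 25.8 (1 CPM at the mean column total), with limma 3.58.1 in R 4.3.3 (intensity trend, group term, no block) and the Benjamini-Hochberg adjustment over all of them, at a threshold of 0.05. Lists were described by counts and medians, with no set test. edgeR 4.0.16 and DESeq2 1.42.0 on the recovered reads, other pseudocounts, floors and scalings, removal of the length and GC trends, a replicate block and each library left out were alternatives. The fits were tested on simulated data with the same dispersion for all genes and no trend over length or shift between replicates. The changes put in were larger than most estimates of the subunit genes, so differences as small as these were not covered. Positions, lengths, GC content and exon overlaps came from GENCODE M21 (GRCm38), 1 coding transcript per gene by principal isoform, support and length, and all 88 genes were matched. Promoters came from RefSeq (GRCm38.p6). Tables used pandas 2.3.3 and numpy 2.4.6 under Python 3.11.15, and figures matplotlib 3.10.9.

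The genes and lists were chosen with earlier results of these data known. Genes named are the nuclear core subunits of complex I, complex II, Cyc1, Cycs, Uqcrfs1, Uqcrc1, Uqcrc2, the F1 and c-ring genes, isoform pairs of complex IV, the 3 smallest p values of each complex, called genes of the pathway lists, and Ppargc1a, Nrf1, Gabpa, Esrra and Tfam. The genes without overlap between groups, Ndufa5, Cox8a, Ttc19, Cs, Ogdh, Dld, Ndufab1, Atpif1 and those at 0 or below the floor were named after their values were seen. 1 gene that this rule names is not reported here.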

Additional observations from a re-analysis of the deposited data

How the results depend on the processing

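With 2 libraries a group, the median 95% interval of a subunit gene is ± 0.44 on the log2 scale. Of 777 values of the 60 named and tested genes under settings other than leaving out a library, 756 kept their direction and side of the threshold. This count is no measure of stability. The replicate block alone, the other floors and the removal of the intensity trend cannot alter a log2 fold change. Of the named genes, only Sco2 was past the threshold to begin with. With 1 library left out, 26 of 240 values changed direction. The replicate numbers are not said to mark pairs, and the replicate differences of the groups correlated at 0.07 over all tested genes and -0.03 over the subunit genes. With the replicate block 0 subunit genes passed, though 674 of all tested genes did, against 247 without it, and among them Gabpa (adjusted p = 0.0169) and Ppargc1a (0.0298). With the block and the length trend removed (761 genes in all), 1 subunit gene passed as higher (Atp5md, 0.53, adjusted p = 0.0359) and 1 as lower. DESeq2 called 1 subunit gene lower (Atp5a1, -0.31, adjusted p = 0.0155) and Ogdh (-0.29, adjusted p = 0.0239), and edgeR's quasi-likelihood test 0 subunit genes, with 6 at an unadjusted p under 0.05. Over all tested genes the calls were 476 in DESeq2, 10 in edgeR, 64 with no floor, 159 with the length trend removed, 57 with the length and GC trends removed, 0 in limma without the intensity trend (1423 at an unadjusted p under 0.05) and 5 (without inhibitor replicate 1) to 795 (without DMSO replicate 1) with 1 library left out. Lower subunit genes then numbered 0 to 2.

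With 1 library left out, medians ran from -0.23 to 0.10 for all 80 genes, -0.25 to 0.11 in complex I, -0.083 to 0.14 in complex III and -0.25 to 0.16 in complex V. They ran from -0.082 to 0.087 for assembly factors, -0.27 to -0.060 for regulators, -0.049 to 0.058 for the TCA cycle, -0.10 to 0.048 for channels, import, carriers and chaperones, and -0.16 to 0.0067 for the mitochondrial ribosome. With the length trend removed, with or without the block, the TCA median was 0.072, and with length and GC removed the complex II median was -0.095.

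Single genes changed sign, none past the threshold before. With 1 library left out the ranges were -0.44 to 0.16 (Atp5e), -0.42 to 0.24 (Atp5g1), -0.17 to 0.031 (Atp5g3), -0.34 to 0.16 (Cox4i1), -0.61 to 0.0047 (Cox5a), -0.067 to 0.26 (Cox6a1), -0.13 to 0.066 (Cox6b1), -0.24 to 0.075 (Cox7a2l), -0.37 to 0.19 (Cox8a), -0.079 to 0.059 (Cyc1), -0.11 to 0.38 (Cycs), -0.33 to 0.052 (Ndufs1), -0.27 to 0.042 (Ndufs3), -0.51 to 0.22 (Ndufs8), -0.032 to 0.18 (Ndufv2), -0.089 to 0.56 (Uqcr11), -0.083 to 0.097 (Uqcrc2), -0.035 to 0.21 (Uqcrfs1) and -0.18 to 0.37 (Atpif1). With the length and GC trends removed the values were 0.11 (Cyc1), -0.13 (Cycs), -0.16 (Ndufv2), 0.012 (Sdhb), -0.045 (Uqcrb) and -0.13 (Uqcrc2). Cyc1 was at 0.028 with the length trend removed, with or without the block, and Uqcrc2 at -0.0032 with TMM factors and -0.0067 in edgeR. Sco2 lost its call with a smaller pseudocount (adjusted p = 0.0549), no floor (0.0950), TMM factors (0.0549), no intensity trend (0.463), the length trend removed (0.0541) and edgeR (0.137). The cause was not tested.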
